A study of Mus musculus with 9 samples.

Results

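Wnt signalling begins with a small set of genes that encode secreted ligands, the receptors that bind them and the secreted proteins that block the contact. These genes were taken from the mouse gene table by symbol. They comprised every protein-coding gene named Wnt, Fzd, Sfrp or Dkk with a number, together with Lrp5, Lrp6, Ror1, Ror2, Wif1 and Axin2. This gave 43 genes out of 55335 gene identifiers: 19 Wnt ligands, 10 Frizzled receptors, 2 Lrp co-receptors, 2 Ror receptors, 9 secreted inhibitors (4 Sfrp, 4 Dkk and Wif1) and the target gene Axin2. Their transcripts were measured by RNA sequencing in D2A1-d cells, a mouse breast carcinoma line, after transduction with a short hairpin RNA. The NTC group carried a non-targeting control hairpin (genotype given as WT), and the shMed4 #1 and shMed4 #4 groups carried different hairpins against Med4 (genotype given as Med4 Knockdown). Med4 belongs to Mediator, a large complex that passes signals from transcription factors to the polymerase. All cells were otherwise untreated and were kept in serum-containing medium. Each group had 3 libraries, which the labels call biological replicates. The labels do not say whether transduced cells were pooled or cloned, or whether the replicates were transduced separately, so a p-value here measures only how these libraries spread, which may be technical.

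Wnt proteins are lipid-modified secreted ligands that bind the extracellular domain of Frizzled receptors. Together with the co-receptors Lrp5 or Lrp6 they stabilise beta-catenin, which enters the nucleus and activates transcription with TCF and LEF factors, whereas other pairings, among them those with Ror receptors, act without beta-catenin. Secreted Frizzled-related proteins and Wif1 bind the ligands, and Dkk proteins bind Lrp5 and Lrp6, so both can block signalling before it reaches the cell. In the mammary gland Wnt signals are known for their part in duct branching and in maintaining stem cells, and Wnt1 was found as a gene activated by mouse mammary tumour virus.

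The libraries held 7572114 to 8582235 reads assigned to genes. Med4 itself had 27.4 ± 2.2 CPM (reads per 1000000 reads assigned to genes, with library sizes adjusted by TMM; SD, n = 3) in NTC, 4.53 ± 0.39 in shMed4 #1 and 7.21 ± 0.98 in shMed4 #4, or 16.6% and 26.3% of the NTC level. As to the labelled cell type, Krt8 and Krt18 were the only 2 of 8 mammary epithelial markers with enough reads to test, and both rose with each hairpin. The summed level of the 8 was 23.6 to 25 CPM in NTC, 93.8 to 111 in shMed4 #1 and 176 to 201 in shMed4 #4, with no read for Cdh1 or Elf5 in any library. Summed markers of other cell types also moved between groups. Leukocyte markers ranged from 129 to 154 CPM in NTC, 87.4 to 96.4 in shMed4 #1 and 88.5 to 97.9 in shMed4 #4 (3 of 4 tested lower, 0 higher, for the mean of both hairpins). Endothelial markers ranged from 3.23 to 4.05, 25.5 to 27.7 and 30.5 to 33.8 CPM (2 of 2 higher) and fibroblast markers from 263 to 297, 235 to 252 and 229 to 247 CPM (2 of 4 higher and 2 lower). Single genes carried the sums of some lists. Cd14 gave most of the leukocyte sum (120 ± 11 CPM in NTC, 76.8 ± 4.1 in shMed4 #1 and 75.4 ± 4.4 in shMed4 #4), whereas Ptprc had 12 reads over all 9 libraries. Flt1 gave most of the endothelial sum with the hairpins (2.09 ± 0.32, 23.0 ± 1.8 and 29.0 ± 2.4 CPM) and Cdh5 rose too (0.832 ± 0.30, 2.47 ± 0.59 and 2.26 ± 0.48 CPM), whereas Kdr had 1 read in all. The part of such cells in the results below was not tested, and in bulk samples fewer cells of a type and less RNA per cell cannot be told apart.

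Transcripts of most of the set were rare or undetected in D2A1-d cells. Of the 43 genes, 32 had at least 1 read in any library and 11 had none: Wnt2, Wnt3a, Wnt5a, Wnt10a, Wnt16, Fzd8, Fzd10, Sfrp1, Sfrp2, Sfrp5 and Dkk1. A gene with no read was undetected at this depth, where 3 reads in 1 library, the limit that a count of 0 allows, correspond to 0.35 to 0.396 CPM (counting error only). A total of 17 genes reached a group mean of 1 CPM in at least 1 group, 12 of them in NTC, 17 in shMed4 #1 and 14 in shMed4 #4. Only 9 reached 10 CPM: the Frizzleds Fzd2 to Fzd7, the co-receptors Lrp5 and Lrp6, and the ligand Wnt7b. The low-count filter, which asked for about 1.21 CPM in 3 libraries, kept 14 genes for testing and left out 29. Those tested were Wnt4, Wnt7b, Wnt9a, Wnt11, Fzd2, Fzd3, Fzd4, Fzd5, Fzd6, Fzd7, Lrp5, Lrp6, Ror1 and Axin2. Of these, 12 reached the filter in every group, whereas Wnt4 and Wnt11 entered only through shMed4 #1, a group in which they were high.

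**Figure D1:**
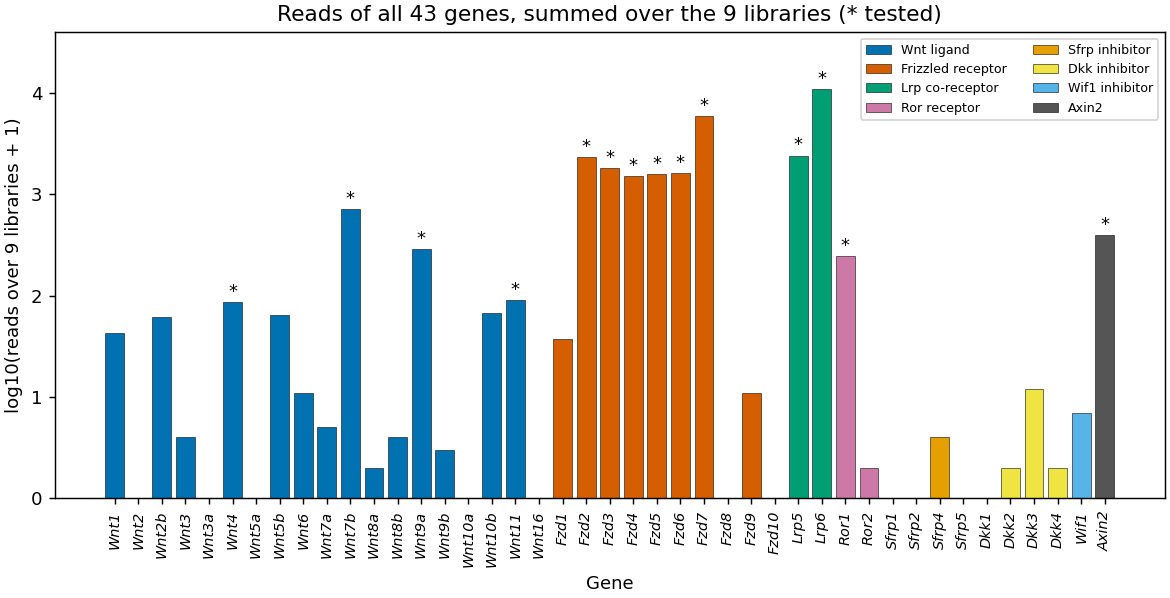
Summed reads of all 43 genes, on a log scale and ordered by family. The 11 genes without a read and the secreted inhibitors, which never passed 7 reads in a group, stand against Fzd7 and Lrp6.

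Receptors dominated the set. Per kilobase of exon, which allows levels of different genes to be compared, Fzd7 led in every group with a mean of 24.6 CPM per kb in NTC, 15.9 in shMed4 #1 and 13.2 in shMed4 #4. Lrp6 came next (10.3, 10.7 and 11.5), followed by Fzd2 (8.37, 8.94 and 8.79). Below these the order differed between groups. Fzd5 (2.55 CPM per kb) and Fzd3 (2.02) came after these in NTC, while Fzd6 (7.49 in shMed4 #1 and 4.70 in shMed4 #4) and Lrp5 (3.83 and 4.61) held those places with the hairpins. The levels of Fzd6 and Lrp5 in shMed4 #4 differed by less than the spread between libraries. Fzd4 followed there at 4.46 ± 0.83 CPM per kb (SD, n = 3), below them by less than its own spread. All Wnt ligands together made up 3.87 ± 0.38 CPM per kb in NTC (SD, n = 3), 5.28 ± 0.11 in shMed4 #1 and 5.51 ± 0.75 in shMed4 #4, against 40.8 ± 1.1, 40.5 ± 0.92 and 36.9 ± 2.2 for all Frizzleds.

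**Figure D2:**
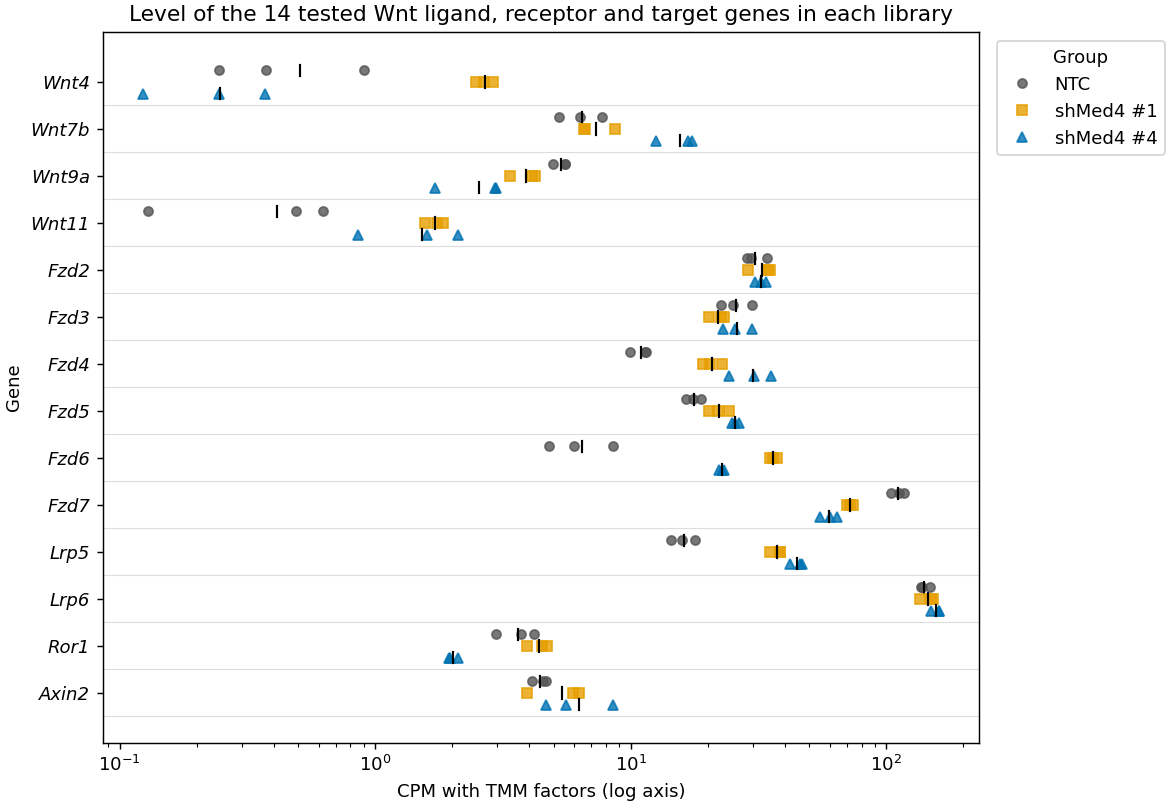
Level of the 14 tested genes in each of the 9 libraries, in CPM on a log axis, with short vertical bars at the group means. The NTC libraries lie apart from both hairpin groups for Fzd4, Fzd5, Fzd6, Fzd7, Lrp5, Wnt9a and Wnt11. Wnt11 entered the tests only through a hairpin group in which it was high, so its place here is a description. How many of all tested genes lie apart in this way was not counted.

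Tests were run on the counts with edgeR across all 14335 genes that passed the filter, with a Benjamini-Hochberg adjusted p under 0.05 as the threshold. With shMed4 #1, 6 of the 14 genes rose and 1 fell, where 41.6% of all tested genes passed the threshold (21.8% higher and 19.8% lower). With shMed4 #4, 7 rose and 3 fell, against 55.1% of all tested genes (27.8% higher and 27.3% lower). For the mean of both hairpins minus NTC, 6 rose and 2 fell, against 53.3% (26.8% higher and 26.5% lower). Both hairpins moved 6 genes in the same direction, namely Wnt11, Fzd4, Fzd5, Fzd6 and Lrp5 upward and Fzd7 downward, and none in opposite directions, against 33.3% of all tested genes with the same direction. Both comparisons share the NTC libraries. Wnt4 and Wnt11 entered the tests only through shMed4 #1, a group in which they were high, so their part in these counts is a description. Over the 12 genes that reached the filter in every group, 4 rose and 1 fell with shMed4 #1 (41.7%). With shMed4 #4, 6 of the 12 rose and 3 fell (75.0%). The share with shMed4 #1 thus lay at the background. The median log2 fold change of the 14 was 0.27 with shMed4 #1 and 0.33 with shMed4 #4, beside -0.01 over all tested genes in each comparison, and over the 12 it was 0.22 and 0.33. Fzd2, Fzd3 and Axin2 passed in none of the comparisons run.

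**Figure D3:**
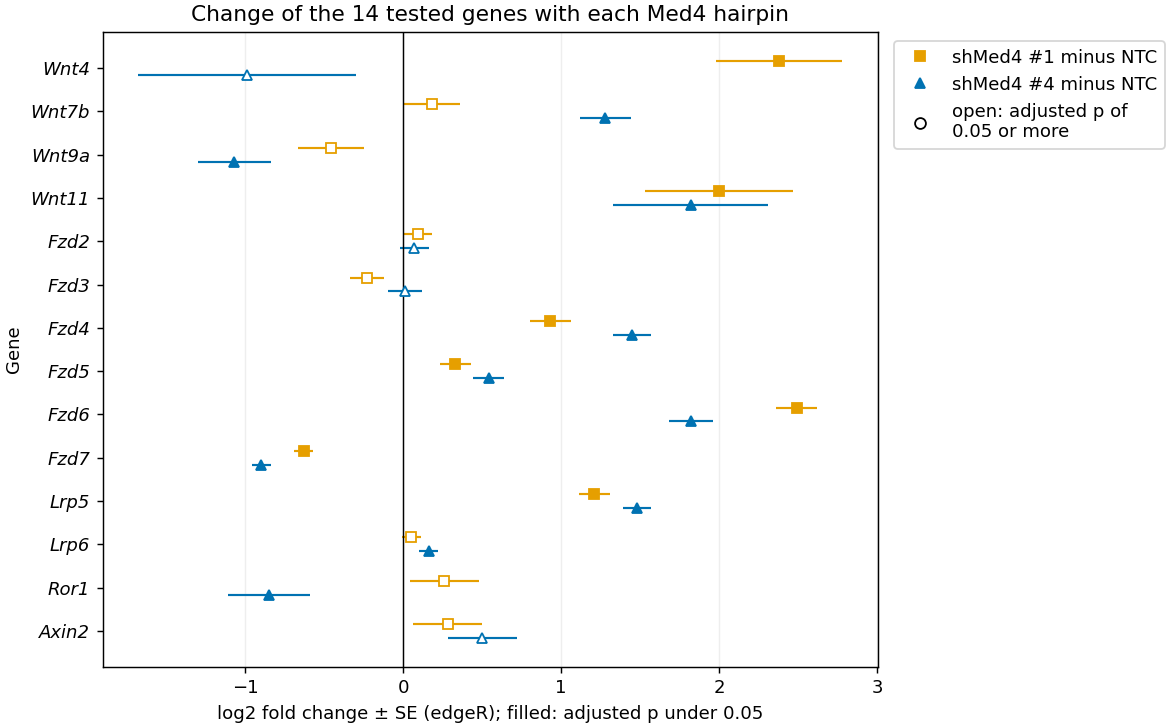
Log2 fold change ± SE of each of the 14 tested genes with shMed4 #1 and shMed4 #4 against NTC, from edgeR, with filled symbols at an adjusted p under 0.05. Fzd6 and Lrp5 lie far right of 0 with each hairpin and Fzd7 left of it, whereas Wnt4, Wnt7b and Ror1 lie apart between the hairpins.

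The sequence before the transcription start is shown for genes that moved in opposite directions, to set what they carry there side by side. Fzd4 and Wnt11 rose with each hairpin, Fzd7 fell with each, and Wnt9a fell with shMed4 #4. The sequences are RefSeq promoter windows (GRCm38.p6, plus strand, 5′ to 3′), cut where the annotated gene begins. For Fzd7 the RefSeq start lies before the GENCODE start, and for Wnt11 the first of its windows is shown. Capitals mark TCF/LEF words, that is CTTTGAA and CTTTGAT, and also CTTTGTA and CTTTGTT, on either strand. The windows are chr7:89404116-89404354 for Fzd4, chr7:98834862-98835111 for Wnt11, chr1:59481897-59482146 for Fzd7 and chr11:59306680-59306927 for Wnt9a.
Fzd4: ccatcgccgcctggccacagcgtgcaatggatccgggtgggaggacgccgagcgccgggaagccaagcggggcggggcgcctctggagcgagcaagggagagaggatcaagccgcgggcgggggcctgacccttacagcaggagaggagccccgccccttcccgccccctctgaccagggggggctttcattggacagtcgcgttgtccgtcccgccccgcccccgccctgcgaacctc
Wnt11: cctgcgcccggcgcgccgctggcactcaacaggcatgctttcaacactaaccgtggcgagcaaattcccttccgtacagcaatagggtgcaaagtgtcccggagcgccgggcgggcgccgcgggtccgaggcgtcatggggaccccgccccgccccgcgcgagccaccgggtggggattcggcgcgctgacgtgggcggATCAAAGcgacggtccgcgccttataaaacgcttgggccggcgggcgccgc
Fzd7: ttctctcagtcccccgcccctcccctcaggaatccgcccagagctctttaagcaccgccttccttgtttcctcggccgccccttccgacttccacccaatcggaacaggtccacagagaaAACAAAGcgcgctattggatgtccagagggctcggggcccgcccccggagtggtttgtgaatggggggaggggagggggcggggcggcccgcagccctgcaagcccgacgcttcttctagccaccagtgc
Wnt9a: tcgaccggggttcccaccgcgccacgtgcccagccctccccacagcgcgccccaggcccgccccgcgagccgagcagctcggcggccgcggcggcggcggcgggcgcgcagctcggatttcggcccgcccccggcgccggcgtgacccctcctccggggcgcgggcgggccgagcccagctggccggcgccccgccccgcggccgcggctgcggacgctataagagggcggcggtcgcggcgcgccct

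Fzd7 had 1 such word, AACAAAG, beginning 130 bases before the RefSeq start, and Wnt11 had 1, ATCAAAG, beginning 51 bases before it. Fzd4 and Wnt9a had none in these windows. All 4 windows were rich in G and C, at 72.8% (Fzd4), 70.8% (Wnt11), 65.2% (Fzd7) and 84.3% (Wnt9a), beside a median of 52.4% over all promoter windows. This was not particular to the 4. Windows of genes without a read ranged from 59.2% (Wnt16) to 87.6% (Wnt3a). In the whole set only those of Wnt8b (48.4%) and Fzd1 (51.2%) lay below that median. Of the 43 genes, 29 matched the promoter table with 32 windows of 250 bases, and 4 of these (12.5%) held a word, in Dkk1, Fzd7, Wnt11 and Wnt5b. Over all 32851 windows of that length the share was 14.8%. Of the tested genes, 8 had a window and 2 of these a word. A match describes letters in the window and is not a measured binding site.

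Fzd6, a Frizzled known for its part in planar polarity of skin and hair, rose most among the receptors. The gene lies on chromosome 15 (39006034 to 39038188, plus strand, GRCm38). Its level was 5.97, 8.52 and 4.79 CPM in the NTC libraries, 35.9, 37.3 and 35.1 CPM in shMed4 #1 and 22.2, 23.1 and 22.7 CPM in shMed4 #4. The 3 groups did not overlap: shMed4 #1 was highest and NTC lowest. How many of all tested genes separate in this way was not counted, here or for the genes below. The increase was 5.63-fold with shMed4 #1 (log2 fold change 2.49, SE 0.13, edgeR adjusted p = 6.76e-19) and 3.54-fold with shMed4 #4 (1.82, SE 0.14, edgeR adjusted p = 3.21e-14). The direct contrast of shMed4 #4 with shMed4 #1 was -0.67 (SE 0.10, edgeR adjusted p = 1.31e-06). The 25 tested genes on each side along the chromosome had a median log2 fold change of 0.23 with shMed4 #1 and 0.33 with shMed4 #4.

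Fzd4, the receptor of Norrin and of several Wnts (chromosome 7, 89404355 to 89413134, plus strand), rose with each hairpin and more with shMed4 #4. Its libraries held 9.95, 11.4 and 11.5 CPM in NTC, 19.1, 20.4 and 22.8 CPM in shMed4 #1 and 24.3, 35.4 and 30.3 CPM in shMed4 #4. Every shMed4 #4 library lay above every shMed4 #1 library, and these above every NTC library. It changed by 0.93 (log2; SE 0.13, edgeR adjusted p = 3.78e-07) with shMed4 #1 and 1.45 (SE 0.12, edgeR adjusted p = 1.35e-12) with shMed4 #4, and the hairpins differed by 0.52 (SE 0.11, edgeR adjusted p = 0.000313). Fzd5, a receptor of beta-catenin-dependent Wnt signals (chromosome 1, 64730558 to 64737751, minus strand), had a smaller increase. It was at 17.5, 18.9 and 16.4 CPM in NTC, 24.2, 20.2 and 22.0 CPM in shMed4 #1 and 24.8, 25.6 and 26.6 CPM in shMed4 #4, again without overlap. Fzd5 changed by 0.33 on the log2 scale with shMed4 #1 (SE 0.10, edgeR adjusted p = 0.00965) and by 0.54 with shMed4 #4 (SE 0.10, edgeR adjusted p = 2.12e-05). The shMed4 #1 call was lost without NTC replicate 3 (0.28, edgeR adjusted p = 0.0513) or without shMed4 #1 replicate 1 (0.26, edgeR adjusted p = 0.0637). Exons of Fzd5 overlap those of Gm38058 on the other strand over 17.8% of their length. Whether reads were counted by strand is not given in the sources used here, so reads of the pair cannot be told apart there. Gm38058 itself had 13 to 25 reads per library. The same holds over 8.8% of Wnt11, 6.61% of Wnt7b, 3.8% of Axin2 and 3.15% of Fzd6, whose partners had 0 to 13 reads per library.

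Fzd7, the most abundant Frizzled and one tied to mammary stem cells and basal breast cancer, was the receptor that fell with each hairpin (chromosome 1, 59482424 to 59486955, plus strand). It had 117, 112 and 104 CPM in NTC, 72.2, 73.8 and 70.4 CPM in shMed4 #1 and 54.8, 60.3 and 64.1 CPM in shMed4 #4. No library of one group reached the range of another. Fzd7 stood at 64.8% of NTC with shMed4 #1 (log2 fold change -0.63, SE 0.06, edgeR adjusted p = 1.91e-10) and at 53.7% with shMed4 #4 (-0.90, SE 0.06, edgeR adjusted p = 1.18e-14). Levels with the hairpins differed by -0.27 (SE 0.07, edgeR adjusted p = 0.00223). Tested neighbours of Fzd7 had a median log2 fold change of -0.04 with each hairpin.

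The other Frizzleds passed no test or had too few reads. Fzd2, a receptor that also serves Wnt5a, was at 29.5, 28.4 and 34.1 CPM in NTC, 35.2, 28.7 and 34.4 CPM in shMed4 #1 and 32.2, 30.7 and 33.7 CPM in shMed4 #4. Its log2 fold changes were 0.09 (SE 0.09, edgeR adjusted p = 0.444) and 0.07 (SE 0.09, edgeR adjusted p = 0.551). Fzd3, a planar polarity receptor known from axon guidance, was at 29.8, 25.2 and 22.5 CPM in NTC, 23.2, 20.3 and 22.6 CPM in shMed4 #1 and 22.9, 29.8 and 25.5 CPM in shMed4 #4, with log2 fold changes of -0.23 (SE 0.11, edgeR adjusted p = 0.0872) and 0.01 (SE 0.11, edgeR adjusted p = 0.927). Libraries of the 3 groups overlapped for both genes. Fzd1 had 18 reads in all NTC libraries together, 15 in shMed4 #1 and 3 in shMed4 #4, and Fzd9 had 7, 2 and 1, so both were left out by the filter. Fzd8 and Fzd10 had no read.

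As a description, the makeup of the Frizzled transcripts differed between groups while their total differed little between NTC and shMed4 #1. Fzd7 made up 60.2% ± 2.0 of the summed Frizzled CPM per kb in NTC (SD, n = 3), 39.3% ± 1.7 in shMed4 #1 and 35.7% ± 0.94 in shMed4 #4. Fzd6 went from 3.27% ± 0.94 in NTC to 18.5% ± 0.95 in shMed4 #1 and 12.8% ± 0.57 in shMed4 #4, and Fzd4 from 4.00% ± 0.41 to 7.64% ± 0.71 and 12% ± 1.7. Ranges of the 3 groups did not overlap for Fzd4, Fzd5, Fzd6 or Fzd7, and did for Fzd2. Fzd5 held 6.25% ± 0.36, 7.89% ± 0.55 and 10.1% ± 0.31, and Fzd2 held 20.6% ± 2.6, 22.0% ± 1.9 and 23.9% ± 1.7. A share depends on every other member of the sum, and no test was run on shares.

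**Figure D4:**
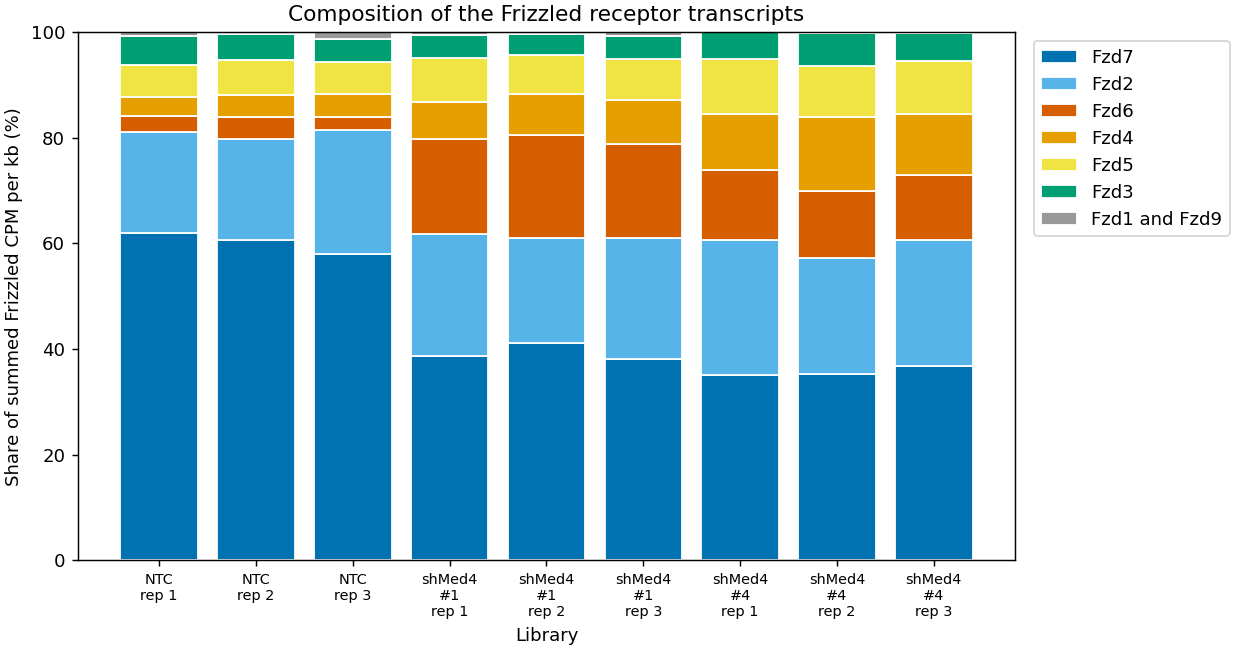
Share of each Frizzled gene in the summed Frizzled CPM per kb, in percent, for each of the 9 libraries. Fzd7 takes 58.0 to 61.9% in the NTC libraries and 35.1 to 41.2% in the hairpin libraries, and Fzd6 takes 2.51 to 4.32% and 12.2 to 19.6%.

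The co-receptors behaved unlike each other. Lrp5 (chromosome 19, 3584828 to 3686564, minus strand) had 14.4, 15.9 and 17.9 CPM in NTC, 35.2, 38.4 and 38.3 CPM in shMed4 #1 and 46.0, 46.8 and 41.8 CPM in shMed4 #4, with no overlap between any groups. It rose 2.32-fold with shMed4 #1 (log2 fold change 1.21, SE 0.10, edgeR adjusted p = 3.74e-13) and 2.79-fold with shMed4 #4 (1.48, SE 0.09, edgeR adjusted p = 2.97e-16). The difference between the hairpins, 0.27 (SE 0.08, edgeR adjusted p = 0.0112), missed the threshold without shMed4 #4 replicate 2 (0.24, edgeR adjusted p = 0.0526). Lrp6 (chromosome 6, 134446476 to 134566965, minus strand) was far more abundant and moved little. Its libraries held 138, 148 and 137 CPM in NTC, 152, 135 and 150 CPM in shMed4 #1 and 150, 161 and 161 CPM in shMed4 #4. NTC overlapped with shMed4 #1 but not with shMed4 #4. Lrp6 changed by 0.05 on the log2 scale with shMed4 #1 (SE 0.06, edgeR adjusted p = 0.523) and 0.16 with shMed4 #4 (SE 0.06, edgeR adjusted p = 0.0187). The shMed4 #4 call was lost with upper-quartile scaling (0.11, edgeR adjusted p = 0.0981) and without NTC replicate 1 (0.0617), NTC replicate 3 (0.0698), shMed4 #4 replicate 2 (0.0568) or shMed4 #4 replicate 3 (0.0609). Lrp5 made up 13.8% ± 1.5 of the Lrp5 and Lrp6 CPM per kb in NTC (SD, n = 3), 26.5% ± 2.0 in shMed4 #1 and 28.6% ± 1.8 in shMed4 #4.

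Ror1, a receptor tyrosine kinase that binds Wnt5a (chromosome 4, 100095791 to 100444765, plus strand), differed between the hairpins. It was at 3.73, 2.97 and 4.17 CPM in NTC, 4.72, 4.48 and 3.93 CPM in shMed4 #1 and 1.95, 2.11 and 1.96 CPM in shMed4 #4. The shMed4 #4 libraries lay below all others, and those of NTC and shMed4 #1 overlapped. It fell by 0.85 on the log2 scale with shMed4 #4 (SE 0.26, edgeR adjusted p = 0.0051), to 55.4% of NTC. The shMed4 #1 value was 0.26 (SE 0.22, edgeR adjusted p = 0.348), and the hairpins differed by -1.12 (SE 0.25, edgeR adjusted p = 0.000601). Its relative Ror2 had 1 read over all libraries.

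Among the 19 ligands, Wnt9a and Wnt7b had the highest mean levels per kilobase in each group. In NTC, Wnt9a made up 41.7% ± 2.7 of the summed Wnt CPM per kb and Wnt7b 33.7% ± 3.3 (SD, n = 3). With shMed4 #1 these shares were 22.2% ± 3.0 and 28.3% ± 5.3, and with shMed4 #4 they were 13.9% ± 4.0 and 57.9% ± 7.1. Wnt9a led in all 3 NTC libraries and Wnt7b in all libraries of both hairpins.

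Wnt7b, a ligand of beta-catenin-dependent signalling in lung and kidney development (chromosome 15, 85535437 to 85582473, minus strand), rose with shMed4 #4. Its level was 5.22, 6.33 and 7.73 CPM in NTC, 6.59, 8.71 and 6.60 CPM in shMed4 #1 and 16.8, 17.4 and 12.6 CPM in shMed4 #4. The shMed4 #4 libraries lay above all others, and NTC and shMed4 #1 overlapped. Its increase with shMed4 #4 was 2.42-fold (log2 fold change 1.28, SE 0.16, edgeR adjusted p = 1.4e-08), and with shMed4 #1 the value was 0.18 (SE 0.18, edgeR adjusted p = 0.46). Wnt7b differed between the hairpins by 1.10 (SE 0.15, edgeR adjusted p = 7.05e-07). Fzd6 and Wnt7b both lie on chromosome 15, and the tested neighbours of Wnt7b had median log2 fold changes of 0.16 and 0.24 with shMed4 #1 and shMed4 #4.

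Wnt9a, a ligand known from joint formation (chromosome 11, 59306928 to 59333552, plus strand), was lower. It had 4.97, 5.55 and 5.52 CPM in NTC, 4.22, 4.11 and 3.36 CPM in shMed4 #1 and 1.71, 2.98 and 2.94 CPM in shMed4 #4. The groups did not overlap. Wnt9a fell with shMed4 #4 to 47.6% of NTC (log2 fold change -1.07, SE 0.23, edgeR adjusted p = 0.000162). With shMed4 #1 the value of -0.46 (SE 0.21, edgeR adjusted p = 0.0786) missed the threshold, as did the difference between the hairpins of -0.61 (SE 0.25, edgeR adjusted p = 0.059).

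Wnt4, which acts downstream of progesterone in mammary duct branching (chromosome 4, 137277489 to 137299726, plus strand), was a low transcript that stood out with shMed4 #1. It had 3, 7 and 2 reads in the NTC libraries, 20, 24 and 23 in shMed4 #1 and 2, 3 and 1 in shMed4 #4. All shMed4 #1 libraries exceeded all others, and NTC and shMed4 #4 overlapped. Wnt4 had a fitted log2 fold change of 2.38 with shMed4 #1 (SE 0.40, edgeR adjusted p = 7.11e-06). Because it entered the tests only through shMed4 #1, where it was high, this value is a description. NTC replicate 2, with 7 of the 12 NTC reads, lowered this value, which was 3.06 without it. The value was 2.21 without NTC replicate 1 and 2.06 without NTC replicate 3. With shMed4 #4 the difference from NTC did not pass (edgeR adjusted p = 0.228), and the hairpins differed by -3.37 (SE 0.46, edgeR adjusted p = 4.8e-07), a fitted value that rests on 6 reads in the shMed4 #4 group.

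Wnt11, a ligand of beta-catenin-independent signalling in cell movement (chromosome 7, 98835112 to 98855195, plus strand), had 5, 1 and 4 reads in NTC, 14, 13 and 16 in shMed4 #1 and 7, 17 and 13 in shMed4 #4. Both hairpin groups lay above NTC and overlapped each other. Wnt11 had a fitted log2 fold change of 2.00 with shMed4 #1 (SE 0.47, edgeR adjusted p = 0.000736) and 1.82 with shMed4 #4 (SE 0.49, edgeR adjusted p = 0.00178). It too entered the tests only through shMed4 #1, where it was high, so these values are descriptions. The difference between the hairpins was -0.18 (SE 0.35, edgeR adjusted p = 0.744).

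Several ligands had reads in most libraries but too few for the filter. Wnt10b, a ligand that holds back fat cell formation, had 3, 4 and 2 reads in NTC, 8, 10 and 16 in shMed4 #1 and 7, 9 and 7 in shMed4 #4. Wnt5b had 5, 3 and 3 reads, then 14, 5 and 8, then 13, 8 and 5. Hairpin libraries of Wnt10b lay above those of NTC, and those of Wnt5b did so except where they tied at 5 reads. Wnt2b had 7, 4 and 11 reads in NTC, 10, 8 and 7 in shMed4 #1 and 0, 6 and 7 in shMed4 #4. Wnt1, the ligand first known from mammary tumours, had 2, 2 and 5 reads, then 6, 3 and 12, then 3, 3 and 6. For these latter genes the groups overlapped. Without the filter, 3 of the 18 members that could be fitted only then passed in at least 1 comparison. Of all 28321 genes fitted without the filter 34.8% did, but these include the genes with enough reads to pass it. The share among genes fitted only then was not computed, so the 3 have no like background. Wnt10b passed with shMed4 #1 (log2 fold change 1.82, edgeR adjusted p = 0.00389), Fzd1 with shMed4 #4 (-2.46, edgeR adjusted p = 0.01) and Wnt5b for the mean of both hairpins (1.21, edgeR adjusted p = 0.0389). Wnt3, Wnt6, Wnt7a, Wnt8a, Wnt8b and Wnt9b had between 1 and 10 reads over all 9 libraries.

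None of the 9 secreted inhibitors passed the filter. Dkk3, an atypical member of the Dkk family, had 0 reads in NTC, 7 in shMed4 #1 and 4 in shMed4 #4 over the 3 libraries of each group. Wif1 had 0, 1 and 5 reads and Sfrp4 had 0, 0 and 3. Dkk2 and Dkk4 had 1 read each over all libraries, and Sfrp1, Sfrp2, Sfrp5 and Dkk1 had none. When the filter was lifted, none of the 5 inhibitors with a read passed in any comparison. The values for Dkk3 with shMed4 #1 then had an edgeR adjusted p of 0.0576, on 7 reads against 0.

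Axin2, a scaffold of the beta-catenin destruction complex and a widely used target gene of the pathway (chromosome 11, 108920349 to 108950783, plus strand), had 33, 36 and 37 reads in NTC, 48, 52 and 34 in shMed4 #1 and 70, 45 and 38 in shMed4 #4. Its level was 4.43 ± 0.29 CPM in NTC, 5.40 ± 1.3 in shMed4 #1 and 6.26 ± 2.0 in shMed4 #4 (SD, n = 3). The shMed4 #1 libraries overlapped with NTC, and in CPM the lowest shMed4 #4 library (4.66) lay just above the highest of NTC (4.65). Axin2 had a log2 fold change of 0.28 with shMed4 #1 (SE 0.22, edgeR adjusted p = 0.34) and 0.50 with shMed4 #4 (SE 0.22, edgeR adjusted p = 0.051). The shMed4 #4 value passed the threshold under 10 of the 17 alternatives and rested in part on replicate 1, without which it was 0.22 (edgeR adjusted p = 0.461).

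Directly compared, shMed4 #4 and shMed4 #1 differed for 7 of the 14 genes, 3 higher with shMed4 #4 (Wnt7b, Fzd4 and Lrp5) and 4 lower (Wnt4, Fzd6, Fzd7 and Ror1), where 28.0% of all tested genes differed. Over the 12 genes that reached the filter in every group the share was 50%. The level of Med4 in shMed4 #4 exceeded that in shMed4 #1 by 0.67 on the log2 scale (SE 0.18, edgeR adjusted p = 0.00401). The genes did not share 1 order: Fzd6 and Wnt4 stood farthest from NTC with shMed4 #1, while Fzd4, Fzd7, Lrp5, Wnt7b and Ror1 stood farthest with shMed4 #4. Whether the level of Med4 bears on these differences was not tested.

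The rest of the pathway was read from 8 lists of 79 further genes, of which 58 were tested. For the mean of both hairpins minus NTC, 22 rose and 13 fell, together 60.3% beside 53.3% of all tested genes. With shMed4 #1, 19 rose and 9 fell (48.3% beside 41.6%), and with shMed4 #4, 25 rose and 14 fell (67.2% beside 55.1%). Both hairpins raised 15 and lowered 5, or 34.5% beside 33.3%, while 2 moved in opposite directions. The share moved the same way by both hairpins thus lay at the background. Of the 58 genes, 52 reached the low-count filter in every group. The other 6 were Lgr6 and Lrp4, which reached it only with the hairpins, Tle4, only in NTC, Nkd2, in NTC and shMed4 #1, Tnfrsf19, only in shMed4 #1, and Celsr1, in no single group. Entry only through the groups in which a gene was high favours a difference, so the values of Lgr6, Lrp4, Tle4 and Nkd2 below are descriptions. The counts and shares above and those per list below include these 6 genes. Shares over the 52 alone were not computed. In the following values the log2 fold change is that of the mean of both hairpins minus NTC unless a hairpin is named.

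The counts per list below stand beside 53.3% of all tested genes past the threshold (26.8% higher and 26.5% lower). Ligand secretion and release had 1 of 3 genes higher and 0 lower (33.3%). Porcn, the acyltransferase that adds the lipid to Wnt proteins, rose by 0.64 (edgeR adjusted p = 0.00188). Wls, which carries Wnt proteins to the cell surface, was at 212 ± 6.9 CPM in NTC, 256 ± 0.17 in shMed4 #1 and 193 ± 8.8 in shMed4 #4 (SD, n = 3), a rise of 0.27 in shMed4 #1 (edgeR adjusted p = 3.65e-05) and a fall in shMed4 #4 (-0.14, edgeR adjusted p = 0.0212). Notum, which removes the lipid, fell with shMed4 #4 (-0.42, edgeR adjusted p = 0.0109). In the R-spondin list, whose ligands and Lgr receptors keep Frizzleds at the surface, 2 of 4 rose and 0 fell (50%), Lgr6 among them. Rspo2 was abundant, at 112 ± 3.3, 125 ± 1.8 and 138 ± 8.5 CPM, and rose by 0.23 (edgeR adjusted p = 0.000127), and Lgr6, with 26 reads over the NTC libraries, 42 in shMed4 #1 and 67 in shMed4 #4, had a fitted value of 0.98 (edgeR adjusted p = 0.00867). Znrf3, the ligase that removes Frizzleds, rose with shMed4 #1 (0.23, edgeR adjusted p = 0.0419) and had a value of -0.09 with shMed4 #4 (edgeR adjusted p = 0.453).

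Of 7 other receptors and co-receptors tested, 4 rose and 1 fell (71.4%). Tspan12, a partner of Fzd4 in Norrin signalling, rose by 0.97 (edgeR adjusted p = 1.87e-06), from 5.26 ± 0.55 CPM in NTC to 8.78 ± 1.8 in shMed4 #1 and 12 ± 1.7 in shMed4 #4 (SD, n = 3). Kremen1, a receptor of Dkk proteins, rose by 0.30 (edgeR adjusted p = 0.000111) and Ptk7 by 0.22 (edgeR adjusted p = 0.000129). Lrp4, with 30, 53 and 87 reads over the libraries of NTC, shMed4 #1 and shMed4 #4, had a fitted value of 1.13 (edgeR adjusted p = 0.000915). The gene counted as lower was Adgra2, a co-receptor for Wnt7 ligands, with -0.26 (edgeR adjusted p = 0.019). It moved in opposite directions, down with shMed4 #1 (-0.79, edgeR adjusted p = 5.51e-07) and up with shMed4 #4 (0.27, edgeR adjusted p = 0.02). Apcdd1 was the only 1 of 8 other modulators with enough reads (-0.15, edgeR adjusted p = 0.101), and 5 of the 8 had no read.

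In the cytoplasm, 7 of 18 genes rose and 6 fell (72.2%). Ctnnb1, which encodes beta-catenin, rose by 0.26 (edgeR adjusted p = 1.4e-06), Gsk3b, the kinase that marks it for destruction, by 0.40 (edgeR adjusted p = 1.78e-08) and Dvl3, which relays the signal from Frizzled, by 0.45 (edgeR adjusted p = 1.32e-07). Csnk1a1, the priming kinase, fell (-0.23, edgeR adjusted p = 2.13e-05). Genes of opposite role in the pathway were among those that rose.

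Of 10 nuclear factors tested, 3 rose and 4 fell (70.0%). Tcf7, which encodes TCF1, was at 7.28 ± 1.4 CPM in NTC, 24.0 ± 0.69 in shMed4 #1 and 39.0 ± 3.7 in shMed4 #4 (SD, n = 3) and rose by 2.07 (edgeR adjusted p = 2.78e-18). Tcf7l1, which encodes the mainly repressive TCF3, was at 9.28 ± 2.1, 4.23 ± 0.75 and 2.82 ± 0.34 CPM and fell by 1.42 on the log2 scale (edgeR adjusted p = 5.27e-09). Tle4, a co-repressor of TCF factors, had 73, 33 and 9 reads over the libraries of NTC, shMed4 #1 and shMed4 #4 and a fitted value of -2.10 (edgeR adjusted p = 2.16e-07). The co-activator Bcl9l rose by 0.27 (edgeR adjusted p = 2.45e-05). Lef1 and Pygo1 had no read.

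The planar polarity list, the branch in which Fzd3 and Fzd6 act, had 3 of 8 genes higher and 1 lower (50%). Vangl2 rose by 0.63 (edgeR adjusted p = 4.12e-07), Prickle1 by 1.58 (edgeR adjusted p = 2.88e-07) and Scrib by 0.44 (edgeR adjusted p = 3.61e-10), and Intu fell (-0.32, edgeR adjusted p = 0.00299). Of 11 commonly used target genes, 3 rose and 1, Nkd2, fell (36.4%). Ccn4 was at 3.59 ± 1.0 CPM in NTC, 16.7 ± 2.1 in shMed4 #1 and 24.3 ± 0.97 in shMed4 #4 (SD, n = 3) and rose by 2.49 (edgeR adjusted p = 3.57e-17). Cd44 rose by 0.43 (edgeR adjusted p = 3.21e-10), and Tcf7 is also on this list. Nkd2, a feedback inhibitor that binds Dvl proteins, was at 9.02 ± 1.2, 3.20 ± 0.21 and 1.11 ± 0.13 CPM, with a fitted value of -2.25 (edgeR adjusted p = 2.83e-13). Axin2 passed in no comparison.

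**Figure D5:**
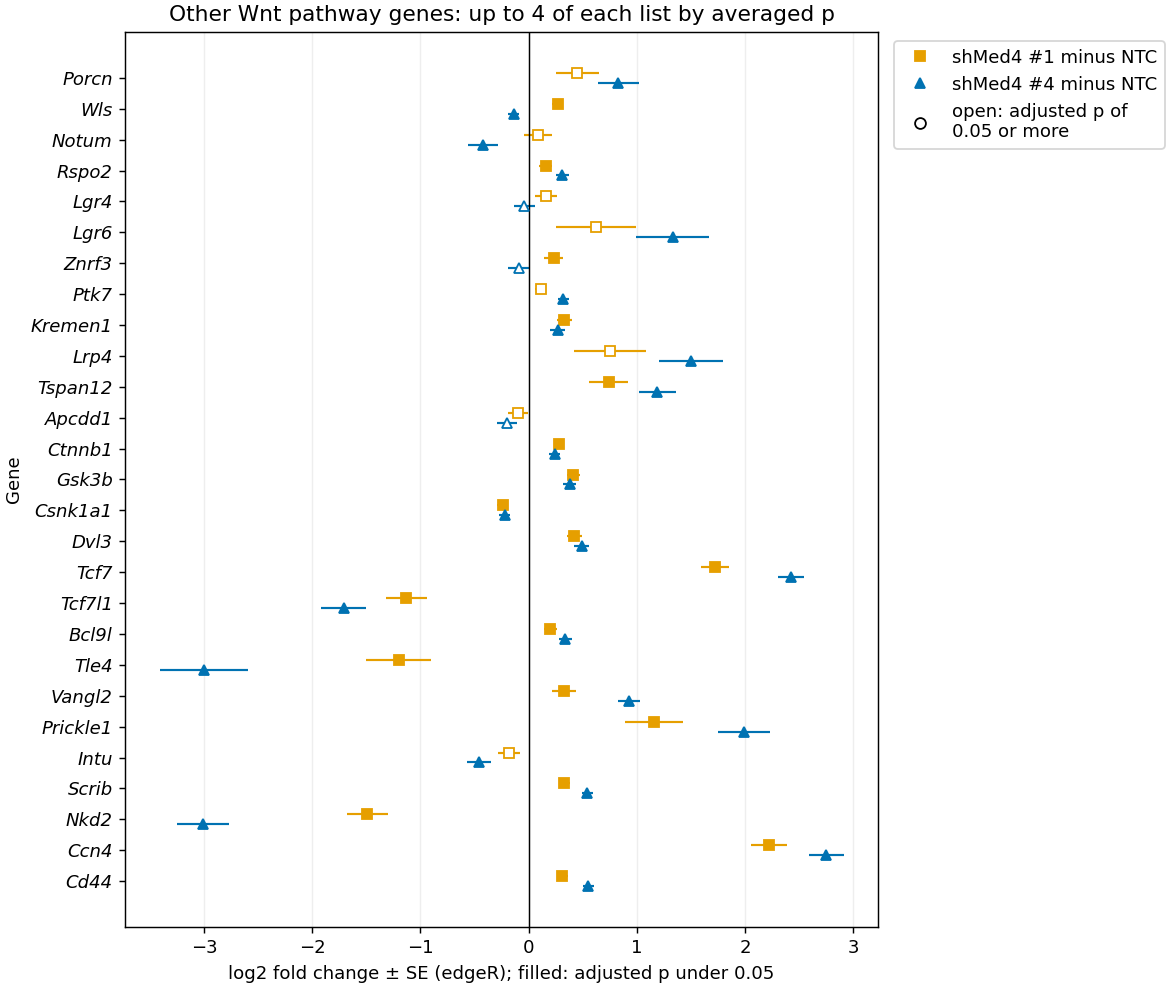
Log2 fold change ± SE with each hairpin against NTC, from edgeR, for up to 4 genes of each other pathway list, taken by the smallest adjusted p for the mean of both hairpins; filled symbols have an adjusted p under 0.05. Tcf7 and Ccn4 lie right of 0 with each hairpin, and Tcf7l1 lies left of it, as do Tle4 and Nkd2, which reached the filter through groups in which they were high.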

How the data were processed

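Total RNA of 9 samples of D2A1-d cells was isolated with an automated kit including DNase, and BGISEQ-500 sequencing followed, per the labels' protocols. STAR and HTSeq are the tools and mm10 (GRCm38) the build listed, per the submitters' processing notes. Their versions, the annotation release, poly(A) selection and use of strand are each not given in the sources used here. Each deposited file holds raw read counts by gene, in whole numbers. The 5 summary lines that close each file entered neither library sizes nor tests. Reads in no annotated gene made up 49.5 to 51.6% of records, alignments to several places 10.5 to 11.6% and ambiguous reads 0.863 to 0.951%. Multiply aligned reads were not counted, so near-identical genes may be understated.

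Of 55335 identifiers, 55154 matched a symbol and GENCODE M21, which gave coordinates and exon lengths on GRCm38. The 43 genes, the pathway lists and the tests were chosen with earlier results of these data known. Counts were fitted in R 4.3.3 with edgeR 4.0.16: filterByExpr (minimum count 10), TMM factors (0.969 to 1.03), 1 quasi-likelihood model with 3 groups of 3 libraries, and Benjamini-Hochberg adjustment over 14335 genes. SE is the size of the log2 fold change divided by the square root of F. CPM per kb is CPM divided by exon length. The code was tested on simulated data. Within groups, all library pairs differed by more than sampling noise (chi-square over its degrees of freedom, 1.53 to 2.95). Values in every library are given for genes past the threshold in any contrast or with a group mean of 1 CPM, and up to 4 genes per pathway list are named by the smallest adjusted p of the averaged contrast. Genes named outside this rule were chosen after their values were seen. Alternatives were DESeq2 1.42.0, limma 3.58.1 (voom), other scalings, filters, libraries and thresholds, a replicate block and leaving out each library.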

Additional observations from a re-analysis of the deposited data

Results flagged for a closer look

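For 7 of the 14 tested genes the effect of shMed4 #4 differed from that of shMed4 #1 in the direct contrast of the hairpins (edgeR adjusted p under 0.05). Among all tested genes 28.0% differed in this contrast. Of the 12 genes that reached the filter in every group, 6 differed. The log2 difference, shMed4 #4 minus shMed4 #1, was -3.37 for Wnt4 (edgeR adjusted p = 4.8e-07), 1.10 for Wnt7b (edgeR adjusted p = 7.05e-07) and -1.12 for Ror1 (edgeR adjusted p = 0.000601). It was -0.67 for Fzd6 (edgeR adjusted p = 1.31e-06) and 0.52 for Fzd4 (edgeR adjusted p = 0.000313). The smallest differences were -0.27 for Fzd7 (edgeR adjusted p = 0.00223) and 0.27 for Lrp5 (edgeR adjusted p = 0.0112). Fzd4, Fzd6, Fzd7 and Lrp5 kept 1 direction against NTC with both hairpins and differed in size, and Wnt4, Wnt7b and Ror1 passed against NTC with 1 hairpin only. Wnt4 entered the tests only through shMed4 #1, where it was high, so its values are descriptions.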

How the results depend on the processing

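A total of 950 alternative values were computed over 56 results (14 genes in 4 comparisons), of which 924 kept their side of the threshold and, where they had passed it, their direction. Of the rest, 17 came to pass it, 9 no longer passed it and 0 reversed a called value. Besides the cases given with their genes above, Wnt7b for the mean of both hairpins missed the threshold when both hairpin groups were pooled as 1 group (0.83, edgeR adjusted p = 0.0553). Fzd3 with shMed4 #1 passed without NTC replicate 3 (-0.32, edgeR adjusted p = 0.0236) and between hairpins without shMed4 #4 replicate 1 (0.33, edgeR adjusted p = 0.0276), and Fzd5 between hairpins passed without shMed4 #1 replicate 1 (0.29, edgeR adjusted p = 0.0452). Lrp6 and Axin2 for the mean of both hairpins passed under 2 of 17 alternatives each. The number of genes past the threshold was 7 to 8 with shMed4 #1, 9 to 12 with shMed4 #4, 7 to 10 for their mean and 6 to 8 between hairpins over all alternatives, where a looser filter or fewer libraries let more genes be tested. Leaving out 1 library gave 7 to 8, 9 to 12, 9 to 10 and 6 to 8. Beside these, all genes past the threshold numbered 4876 to 6145, 6877 to 8183, 5721 to 7852 and 2957 to 4129. Those ranges cover every alternative except the stricter threshold. The number of expressed genes was 14 by the filter, 17 by a group mean of 1 CPM and 32 by at least 1 read in any library. The 35 other pathway genes past the threshold were 27 when both hairpin groups were pooled, with 74.1% of them higher against 62.9%. All genes past the threshold became fewer with this pooling too, from 7640 to 5721. The share of them that was higher, 50.4% before pooling, changed little. With upper-quartile factors, 46.1% of all genes past the threshold with shMed4 #1 were higher (52.5% with TMM), 43.9% with shMed4 #4 (50.5%), 43.5% for their mean (50.4%) and 45.9% between hairpins (50.5%). Same-numbered libraries did not deviate together (correlations -0.059 to 0.035, and 1 of 9 libraries correlated best with its own number in both other groups). With the replicate number as a replicate block the counts were 7, 11, 8 and 7, with Axin2 added for shMed4 #4. Wnt4 and Wnt11 with shMed4 #4 have no value when NTC and shMed4 #4 are fitted alone, since the filter then leaves them out. The cause of these changes was not tested beyond that. Depth limits all statements on genes under about 10 reads per library.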
